A study of Homo sapiens with 4 samples.

Results

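The mitochondrial ribosomal protein genes are 78 of the 20149 protein-coding genes annotated on hg19, and they were taken by symbol, as every gene whose name begins with MRPL or MRPS followed by a digit. By symbol 49 of them encode proteins of the large subunit and 29 proteins of the small subunit. ChIP-seq with the Abcam ab4729 antibody mapped acetylated lysine 27 of histone H3 (H3K27ac), found at promoters and enhancers in use, in the human erythroleukaemia line K562. The 3 libraries came from K562 cells transduced with an shRNA against TFAM (TFAM-sh1, called hairpin 1), with another shRNA against TFAM (TFAM-sh2, called hairpin 2), and with the control shRNA (shNT). All cells were the same line in the same serum-containing medium, and whether the transduced cells were clones or pools was not given in the sources used here. Both hairpins target TFAM, which coats mitochondrial DNA and is needed to transcribe it, and the extent of its depletion was not measured by these data. The series asked how raised histone acetylation after TFAM loss is spread over the genome.

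The mitochondrial ribosome translates the few proteins that mitochondrial DNA still encodes, all of them parts of the respiratory chain or ATP synthase. Its RNAs come from mitochondrial DNA, but all of its proteins are encoded in the nucleus, translated in the cytosol and imported. Some of these proteins have counterparts in the bacterial ribosome and others are found only in mitochondria, and erythroid cells need the respiratory chain while they make haem. The large subunit forms the peptide bonds, and the small subunit reads the messenger RNA.

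Each condition had 1 library, so no value below carries a p-value or a spread between replicates. The deposited data are lists of peaks, and the quantity reported is the number of base pairs covered by peaks within 5 kb on each side of a start site, called covered bp. A promoter peak is a peak with at least 1 bp within 1 kb of the start site. The lists held 23819 peaks over 54.4 Mb in hairpin 1, 27007 peaks over 61.9 Mb in hairpin 2 and 23413 peaks over 52.1 Mb in the control. No read depth is recorded for them, so a longer list cannot be told apart from a deeper or more sensitively called one. Of 6 genes checked as markers of the line, HBZ (embryonic globin), LMO2 (erythroid cofactor) and TFRC (transferrin receptor) had a promoter peak in every list. TAL1 (erythroid activator) had one in hairpin 1 and the control only, and GATA1 (erythroid factor) and HBG1 (fetal globin) had none in any list. No peak in any list is wider than 8841 bp, and whether broader domains were dropped is unknown. These absences thus do not show that the promoters were unmarked.

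Sequences around the start sites are shown because the letters of 2 motifs were more frequent in these promoters than over all genes, and often lay close to the start. The letters AAGATGGCG, known as a binding motif of the factor YY1, stand in capitals in the following stretches, which run from 30 bases before the start site to the thirtieth transcribed base on the strand of the gene (GRCh37, the same build as hg19).
MRPL38, chr17:73900936-73900995, minus strand: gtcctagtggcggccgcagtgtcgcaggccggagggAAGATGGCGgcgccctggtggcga
MRPL42, chr12:93861260-93861319, plus strand: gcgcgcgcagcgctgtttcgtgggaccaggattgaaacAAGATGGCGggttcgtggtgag
MRPL46, chr15:89010590-89010649, minus strand: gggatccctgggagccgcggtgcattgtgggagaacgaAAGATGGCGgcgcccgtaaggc
MRPS10, chr6:42185570-42185629, minus strand: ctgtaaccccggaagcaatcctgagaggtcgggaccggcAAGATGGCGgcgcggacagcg
MRPS18A, chr6:43655499-43655558, minus strand: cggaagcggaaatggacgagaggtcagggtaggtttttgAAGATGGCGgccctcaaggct
MRPS30, chr5:44809019-44809078, plus strand: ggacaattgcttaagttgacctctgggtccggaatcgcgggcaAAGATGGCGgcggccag

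The letters CCGGAAG, the core of the motif bound by ETS factors, are in capitals in the next stretches, which run from 50 bases before the start site to the tenth transcribed base.
MRPL3, chr3:131221806-131221865, minus strand: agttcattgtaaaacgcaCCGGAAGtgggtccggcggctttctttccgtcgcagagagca
MRPL40, chr22:19420018-19420077, plus strand: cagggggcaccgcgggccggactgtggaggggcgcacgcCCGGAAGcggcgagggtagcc
MRPL43, chr10:102747245-102747304, minus strand: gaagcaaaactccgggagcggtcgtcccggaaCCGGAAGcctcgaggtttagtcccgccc
MRPL58, chr17:73008715-73008774, plus strand: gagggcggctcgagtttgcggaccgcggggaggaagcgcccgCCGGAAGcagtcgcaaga
MRPS12, chr19:39421534-39421593, plus strand: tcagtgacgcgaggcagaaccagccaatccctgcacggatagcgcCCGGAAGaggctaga

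Nearly every one of these genes was marked at its promoter whatever the shRNA. A promoter peak was present in every list at 76 of the 78 genes, which is 97.4% (exact Clopper-Pearson 95% interval for counting error 91.0 to 99.7), while 50.3% of all protein-coding genes had one in every list. By symbol this held for 47 of 49 large subunit genes and for 29 of 29 small subunit genes. The exceptions were MRPL14, which lacked a promoter peak in hairpin 2 only, as did 1.21% of all genes, and MRPL35, which had none in any list, as did 41.4%. No member was marked in hairpin 1 only, in hairpin 2 only, or in all but hairpin 1, patterns seen at 1.65%, 1.68% and 1.34% of all genes. No member gained a promoter peak in both hairpins and none lost one in both, and 0 of 78 allows a share of up to 3.85% by 3 counts of the total, or 4.62% by the exact interval. Among all genes 1.53% gained and 0.829% lost one in both hairpins, both within that limit.

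Of the 77 members with a control promoter peak, 0 lacked it in hairpin 1, against 4.03% of all genes with a control promoter peak, and 0 of 77 allows up to 3.90% by 3 counts of the total. The exact interval reaches 4.68% and includes that background. In hairpin 2 the peak was absent at 1 of the 77 (1.30%, 0.0329 to 7.02), against 3.80% of all such genes. The marked start sites all lay inside the peaks: 77 of 77 in hairpin 1, 76 of 76 in hairpin 2 and 77 of 77 in the control. Over all genes the start site lay inside the promoter peak in 96.5%, 96.0% and 96.1% of cases in the same order of lists. MRPL46 and MRPS11 share 1 peak, so the 77 marked members had 76 separate control peaks.

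The promoter peaks ranked high in their lists. The authors' score for a peak was turned into a percentile of its own list. Its median over the 76 members with a peak in every list was 85.3 in hairpin 1, 87.5 in hairpin 2 and 85.3 in the control. For all 10143 genes with a promoter peak in every list the medians were 79.3, 81.7 and 78.1. At or above percentile 50 in every list at once stood 72 of the 76 members (94.7%, 87.1 to 98.5), where 82.5% of those 10143 genes did. MRPL40, a large subunit protein found only in mitochondria, had the highest-scoring peak of all 23819 in hairpin 1, the peak ranked 249 in hairpin 2 and the peak ranked 16 in the control. MRPS7 and MRPL20, named after their values were seen, came next in the control, at percentiles 99.4 and 99.3 in hairpin 1, 99.5 for both in hairpin 2, and 99.9 and 99.5 in the control. Lowest in the control, though not in the hairpins, was MRPL22, whose bacterial counterpart lines the exit tunnel, at percentiles 55.1, 51.3 and 41.7 in hairpin 1, hairpin 2 and the control.

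Covered bp differed by under 1.5 times between the libraries at most of the genes. The median member had 2643 bp in hairpin 1 (0 to 7099), 2769 bp in hairpin 2 (0 to 8019) and 2586 bp in the control (1620 to 6642). The highest of the 3 values was a median of 1.22 times the lowest over the 76 members covered in every list, and it was under 1.5 times in 62 of them (81.6%, 71.03 to 89.5). For all genes with a promoter peak in every list the median ratio was 1.27 and the share 75.3%, which lies inside the members' interval. The median difference from the control was 41.5 bp in hairpin 1 (95% interval of the median -9 to 217) and 88.5 bp in hairpin 2 (-83 to 250). For all genes with a promoter peak in every list it was 75 bp in hairpin 1 and 210 bp in hairpin 2, both inside the members' intervals. Both hairpins are compared with the same control library.

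**Figure D1:**
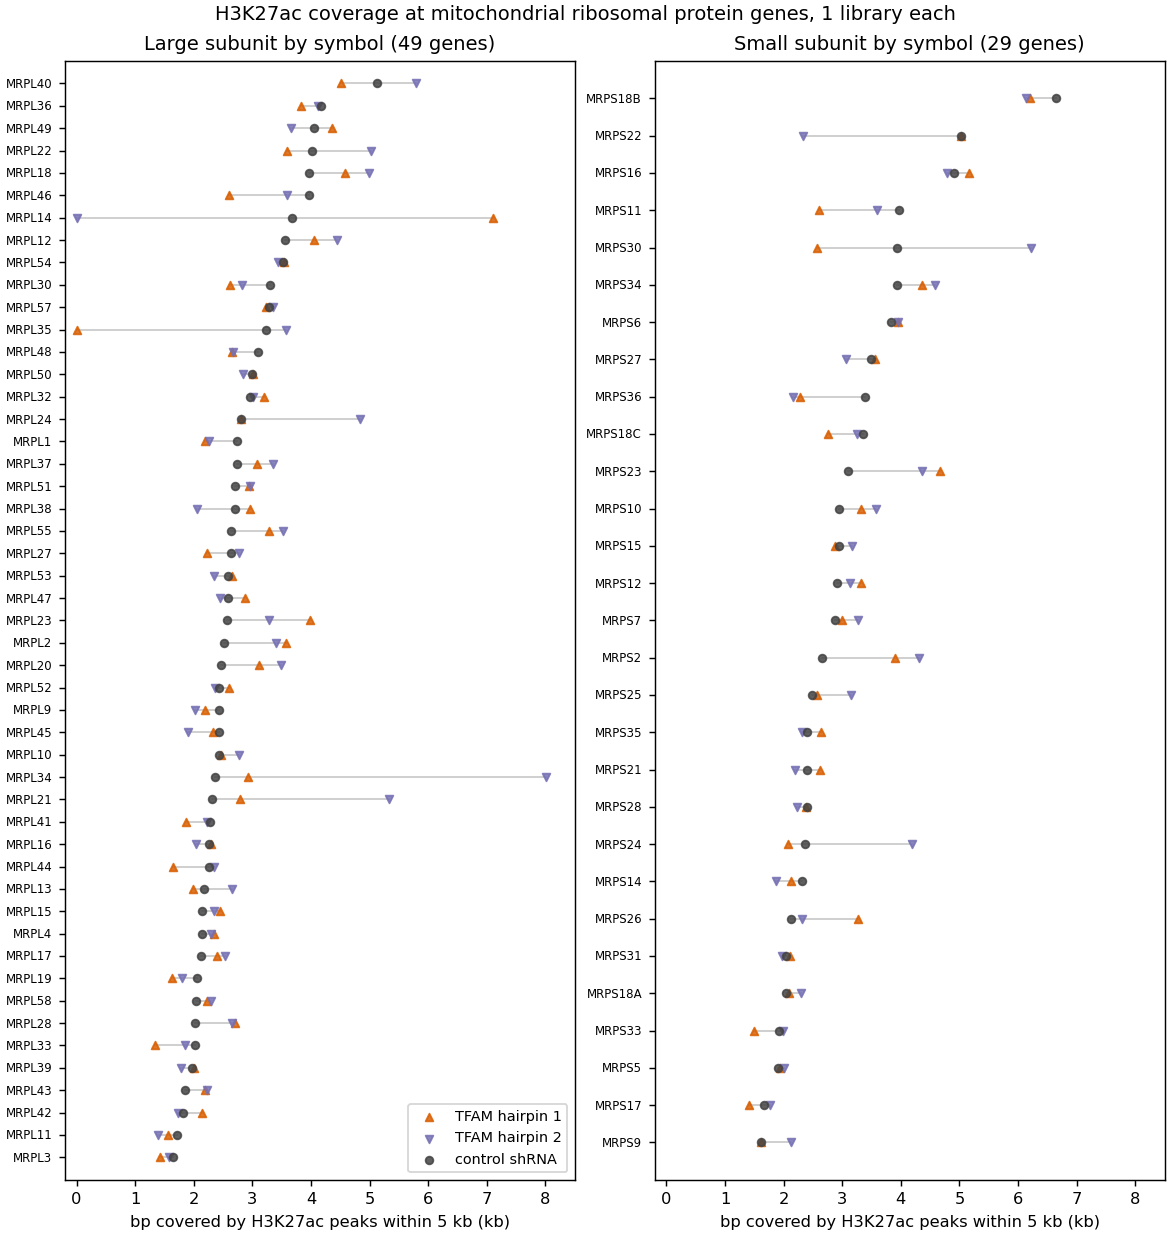
Base pairs covered by H3K27ac peaks within 5 kb of the start site (kb, horizontal axis) at each of the 49 large and 29 small subunit genes, ordered by the control value. Each symbol is 1 library, and the grey line joins the lowest and highest value; most genes lie between 1.5 and 5 kb in every library, while MRPL35 is at 0 in hairpin 1 and MRPL14 at 0 in hairpin 2.

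In hairpin 1, 47 of 77 members (61.0%, 49.2 to 72.0) had more covered bp than in the control, where 57.2% of all genes covered in both lists did, and 30 had fewer, where 42.7% did. In hairpin 2, 43 of 77 (55.8%, 44.1 to 67.2) had more, where 66.5% of all genes did, and 34 had fewer, where 33.4% did. The share in hairpin 1 was close to that of all genes. The share in hairpin 2 was lower than that of all genes, which lies inside the members' interval. The difference was not tested since genes of 1 library are not replicates. The hairpin 2 list was the longest. With the lists cut to equal length the hairpin 2 share was 53.9% (42.1 to 65.5) in members and 66.2% in all genes. The value of all genes then lies outside the members' interval. Promoter G+C content, with a median of 59.7% in members and 66.7% in all genes with a promoter peak in every list, differed as well, and its part in the result was not tested.

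Few members passed 1.5-fold. In hairpin 1, 4 of 77 had at least 1.5 times the control's covered bp, where 10.0% of all genes did, and 4 of 77 had at most the control divided by 1.5, where 5.18% did. Those lower members include both MRPL46 and MRPS11, which share 1 peak and are not separate observations. In hairpin 2 the counts were 6 of 77 higher, where 12.8% of all genes were, and 2 of 77 lower, where 3.14% were. The shares of higher members were 5.19% (1.43 to 12.8) in hairpin 1 and 7.79% (2.91 to 16.2) in hairpin 2. Those of lower members were 5.19% (1.43 to 12.8) and 2.60% (0.316 to 9.07). All 4 intervals include the background.

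The large and small subunit genes overlapped widely in these measures. Median covered bp of the large and the small subunit genes were 2646 and 2640 bp in hairpin 1, 2677 and 3139 bp in hairpin 2, and 2572 and 2872 bp in the control. The median difference from the control in hairpin 1 was 35 bp in the large and 48 bp in the small subunit, and in hairpin 2 it was 74 bp and 108 bp. In hairpin 2 single genes differed from the control by -3673 up to 5659 bp (large subunit) and by -2684 up to 2271 bp (small subunit). More covered bp than in the control were seen at 30 of 48 large and 17 of 29 small subunit genes in hairpin 1, and at 26 of 48 and 17 of 29 in hairpin 2. Over all genes covered in both lists the shares were 57.2% and 66.5%.

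**Figure D2:**
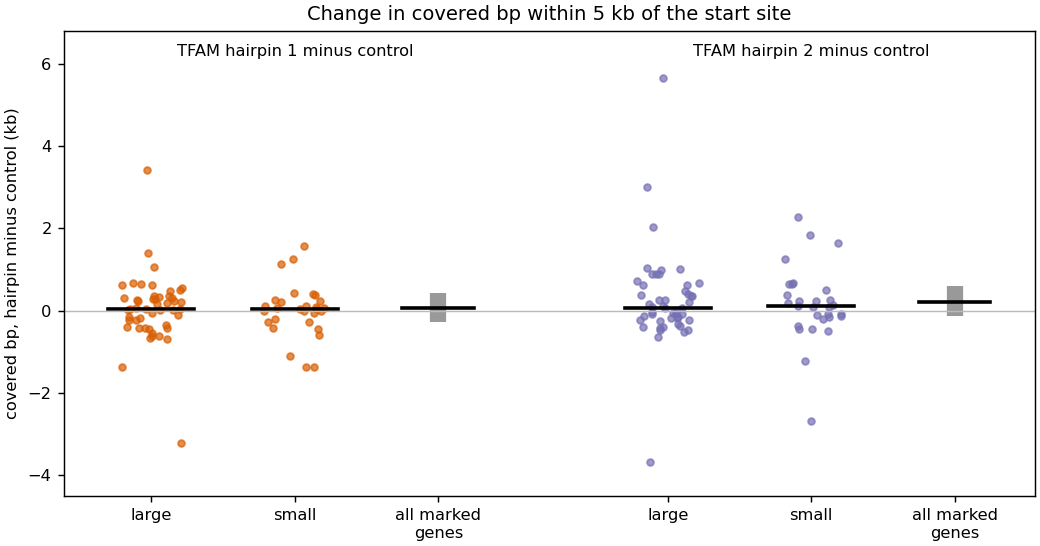
Covered bp in each hairpin minus the control (kb, vertical axis) for large and small subunit genes, 1 point per gene with the median as a black line; the grey bars show the interquartile range and median of all 10143 genes with a promoter peak in every list. Medians of both subunits lie near 0, at 35 and 48 bp in hairpin 1 and at 74 and 108 bp in hairpin 2.

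Divided by origin, all 29 genes of large subunit proteins with bacterial counterparts had some coverage in the control and 27 had a promoter peak in every list. Their median covered bp were 2612 in hairpin 1, 2764 in hairpin 2 and 2466 in the control. The 19 genes of mitochondria-specific large subunit proteins all had a promoter peak in every list, with medians of 2646, 2367 and 2702 bp. Of these 19, 12 had more covered bp than the control in hairpin 1 and 7 in hairpin 2. Among all genes covered in both lists 57.2% and 66.5% did. The 15 genes of conserved small subunit proteins had medians of 2756, 3246 and 2872 bp, and the 10 of mitochondria-specific ones had 3415, 2697 and 2789 bp. All 25 had a promoter peak in every list. The order of the 3 medians differed between the groups, but within each group the 95% intervals of the medians overlapped. In the 10 mitochondria-specific small subunit genes they were 2115 to 5021, 1996 to 4580 and 2048 to 5019 bp. Intervals this wide cannot settle whether the groups differ by origin, which was not tested. MRPL55, MRPS18A, MRPS28, MRPS30 and MRPS36 are in none of these lists. The mitochondria-specific small subunit list includes MRPS18B, although it is related to the same bacterial protein as MRPS18C, which is listed as conserved.

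The genes of the stalk, the flexible arm of the large subunit that recruits translation factors, were marked in each library. MRPL12, the stalk protein itself, had 4056 bp in hairpin 1, 4452 bp in hairpin 2 and 3552 bp in the control, with score percentiles of 97.0, 98.4 and 99.1. MRPL10, which anchors it, had 2463, 2774 and 2428 bp. MRPL11, at the base, had 1557, 1394 and 1714 bp, among the shortest of all members, at percentiles of 96.1, 91.9 and 96.2. A short covered length at MRPL11 thus went with a high score in each list. MRPL58, a peptidyl-tRNA hydrolase built into the large subunit, had 2233, 2300 and 2046 bp.

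MRPS12, which lies at the decoding centre of the small subunit, had 3315 bp in hairpin 1, 3139 bp in hairpin 2 and 2904 bp in the control. The paralogs MRPS18A, MRPS18B and MRPS18C, all related to 1 bacterial protein, differed from each other more than between libraries. MRPS18A had 2094, 2296 and 2046 bp. MRPS18B had 6203, 6136 and 6642 bp, the most of any small subunit gene in the control. MRPS18C had 2756, 3246 and 3346 bp. MRPS18A and MRPS30 carry small subunit names but sit in the large subunit in the human structure, and MRPS36 is also described as a component of the oxoglutarate dehydrogenase complex. With the first 2 counted as large and MRPS36 left out, the large minus small difference of the median change was -32.5 bp in hairpin 1 and -18 bp in hairpin 2, and that of the control level was -189 bp, against -13, -34 and -300 bp by symbol.

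MRPL14, a conserved protein of the face between the subunits, had the widest range between the libraries. It had 7099 covered bp in hairpin 1, 0 bp in hairpin 2 and 3673 bp in the control. Its promoter peak spanned 6546 bp in hairpin 1 (chromosome 6, 44092937 to 44099482) and 3673 bp in the control (44093187 to 44096859), at score percentiles of 52.8 and 82.3. No hairpin 2 peak lay within 15 kb of the start site. The start site is 102 bp from that of TMEM63B, an ion channel gene read in the other direction. The promoter of TMEM63B lacked a peak in hairpin 2 as well, but it overlaps that of MRPL14 and is not a separate observation. Across the genome 244 genes lacked a promoter peak in hairpin 2 only, and 197 of them had 0 covered bp there. Their median promoter peak was 3313 bp wide in hairpin 1 and 2466 bp in the control, against 2645 and 2542 bp for genes marked in every list. The widest peak in any list measures 8841 bp, and it is unknown if broader domains were dropped, so the lack of a peak does not show an unmarked promoter.
The promoter of MRPL14 is shown from 120 bases before the start to the thirtieth transcribed base, with the letters GGGCGG of the SP1 motif and their complement in capitals.
MRPL14, chr6:44095160-44095309, minus strand: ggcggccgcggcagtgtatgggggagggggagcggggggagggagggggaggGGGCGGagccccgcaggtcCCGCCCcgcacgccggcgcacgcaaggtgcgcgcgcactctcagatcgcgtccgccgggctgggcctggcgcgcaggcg

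MRPL35, another conserved large subunit protein, had no promoter peak in any list. Covered bp within 5 kb were 0 in hairpin 1, 3580 in hairpin 2 and 3232 in the control. The covered stretch lay upstream, in peaks with edges at -6835 and -1421 bp from the start site in hairpin 2 and at -6182 and -1769 bp in the control, at score percentiles of 8.16 and 28.6. It includes the start site of IMMT, 3995 bp away, which encodes the core of the complex that shapes the inner mitochondrial membrane. IMMT had a promoter peak in hairpin 2 and the control and 0 covered bp in hairpin 1. No hairpin 1 peak lay within 15 kb of the MRPL35 start site. The MRPL35 promoter, shown over the same span as that of MRPL14, holds no GGGCGG letters in these bases.
MRPL35, chr2:86426460-86426609, plus strand: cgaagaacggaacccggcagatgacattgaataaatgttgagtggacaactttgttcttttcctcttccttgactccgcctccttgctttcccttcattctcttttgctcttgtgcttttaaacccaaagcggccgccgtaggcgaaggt

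The members furthest above the control in hairpin 2 had added peaks, wider ones or both. MRPL34, a conserved large subunit protein, had 2918 bp in hairpin 1, 8019 bp in hairpin 2 and 2360 bp in the control. Its promoter peak was 2918, 2517 and 2360 bp wide, and the other 5502 bp in hairpin 2 lay in 2 peaks beside it of 2102 and 3552 bp, at score percentiles of 10.3 and 13.3. MRPS24, the counterpart of a bacterial small subunit protein, was named for its fold after the values were seen. It had 2070, 4187 and 2357 bp, and 2330 bp of the hairpin 2 value lay outside the promoter peak. MRPL21, a conserved large subunit protein, had 2787, 5339 and 2318 bp, all in 1 peak that ran 3621 bp into the gene in hairpin 2, against 999 bp in the control. MRPL24, likewise conserved, had 2813, 4841 and 2799 bp, of which 421 bp in hairpin 2 lay outside the promoter peak. The promoter peak stood at score percentiles of 85.3, 67.3 and 84.0 for MRPL21 and 76.0, 32.5 and 70.7 for MRPL24. At both genes the wider peak in hairpin 2 ranked lower in its list.

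MRPS30 lay below the control in hairpin 1 and above it in hairpin 2, with 2566 bp in hairpin 1, 6213 bp in hairpin 2 and 3942 bp in the control. Its peak stood at score percentile 96.0 in hairpin 1, 65.6 in hairpin 2 and 74.3 in the control, so the narrowest peak ranked highest. MRPS22, a mitochondria-specific small subunit protein, had 5021, 2335 and 5019 bp. Its promoter peak was of like width in all libraries, at 2132, 2335 and 2294 bp. The difference came from a second peak of 3715 bp in hairpin 1 and 3397 bp in the control, upstream of the promoter, which hairpin 2 lacked. MRPS22 thus showed a difference near the gene but not at its start site. MRPL38, also mitochondria-specific, had 2967, 2054 and 2702 bp.

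Both hairpins were above the control at 30 of the 76 members covered in every list (39.5%, 28.4 to 51.4). The same held for 45.5% of all genes covered in every list. Among the 30 were MRPS2, MRPS23 and MRPL23, named for the size of their difference in hairpin 1. MRPS2, the counterpart of a bacterial small subunit protein, had 3898 bp in hairpin 1, 4302 bp in hairpin 2 and 2650 bp in the control, which is 1.47 and 1.62 times the control. MRPS23, mitochondria-specific, had 4663, 4361 and 3098 bp, at 1.51 and 1.41 times. MRPL23, a conserved large subunit protein, had 3984, 3283 and 2572 bp, at 1.55 and 1.28 times. MRPS26, a mitochondria-specific protein chosen for its fold after the values were seen, had 3263, 2317 and 2132 bp. No replicate tells whether any of these exceeds the variation between libraries of 1 condition.

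Both hairpins were below the control at 18 of the 76 members covered in every list (23.7%, 14.7 to 34.8). This was so for 22.1% of all genes covered in every list. Among the 18 were MRPS36, MRPL46 and MRPS11. MRPS36 had 2284 bp in hairpin 1, 2164 bp in hairpin 2 and 3384 bp in the control, or 0.675 and 0.639 times the control. MRPL46 and MRPS11, of the large and the small subunit, are read in opposite directions from start sites 320 bp apart and have the same values, 2599, 3596 and 3967 bp. That shared peak lies on chromosome 15 from 89009417 to 89012015 in hairpin 1, 89008342 to 89011937 in hairpin 2 and 89007844 to 89011810 in the control. MRPL33, a conserved large subunit protein chosen for its fold after the values were seen, had 1347, 1855 and 2022 bp.
The stretch from 250 bases before the MRPS11 start site to its thirtieth transcribed base, most of the interval between the pair, is shown without capitals because it holds neither the YY1 nor the ETS letters; those of MRPL46 lie past its own start.
MRPS11, chr15:89010689-89010968, plus strand: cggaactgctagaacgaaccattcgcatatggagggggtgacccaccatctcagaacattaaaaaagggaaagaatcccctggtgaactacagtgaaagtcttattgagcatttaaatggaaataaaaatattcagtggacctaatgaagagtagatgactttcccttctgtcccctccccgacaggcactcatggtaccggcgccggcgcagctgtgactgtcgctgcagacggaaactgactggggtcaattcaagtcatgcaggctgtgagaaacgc

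The members with the most and the fewest covered bp on average changed rank between the libraries. MRPL40 had 4511 bp in hairpin 1, 5790 bp in hairpin 2 and 5127 bp in the control, and MRPS16, a conserved small subunit protein, had 5167, 4779 and 4907 bp. MRPL3, whose bacterial counterpart lies near the peptidyl transferase centre, had 1420, 1583 and 1654 bp. MRPS17, a conserved small subunit protein, had 1405, 1764 and 1670 bp. MRPL22 had 3597, 5023 and 4026 bp, of which 1958, 2301 and 1898 bp lay in a peak outside its promoter.

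A divergent neighbour, here a protein-coding gene on the other strand whose start site lies up to 1 kb upstream, was found at 26 of the 78 members (33.3%, 23.1 to 44.9). This holds for 16.9% of all genes with a promoter peak in every list and for 9.37% of all protein-coding genes. The large subunit had 19 of its 49 genes in such pairs and the small subunit 7 of 29. The distance between the start sites had a median of 200 bp and ran from 45 to 990 bp. A single peak covered both start sites at 25 of the 26 in hairpin 1, 25 in hairpin 2 and 26 in the control.

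Several of the partners also act in mitochondria, and they were picked out after the pairs were listed. MRPL43 is paired with TWNK, the helicase of mitochondrial DNA, over 46 bp. MRPS12 is paired with SARS2, the mitochondrial seryl-tRNA synthetase, over 181 bp, and MRPL47 with NDUFB5, a subunit of complex I, over 156 bp. MRPS27 is paired with PTCD2, a mitochondrial RNA-binding protein, over 133 bp. Others pair with housekeeping genes: MRPL49 with FAU, which encodes a cytosolic ribosomal protein, MRPL32 with PSMA2 of the proteasome, MRPL18 with TCP1 of the cytosolic chaperonin and MRPL40 with HIRA, a histone chaperone. Each of these partners had a promoter peak in every list, and it was the peak that covered the member's start site. The partners are therefore not separate observations.

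The peaks of paired members reached further upstream. Their median upstream extent from the start site was 1605 bp in hairpin 1, 1673 bp in hairpin 2 and 1600 bp in the control, against 907, 866 and 952 bp for the other members. Downstream the extents were alike, at 1435, 1469 and 1351 bp in paired members and 1412, 1377 and 1349 bp in the others. Median covered bp were 3048, 3255 and 2974 in paired members and 2420, 2328 and 2395 in the others. The libraries had the same order of the groups in each case.

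**Figure D3:**
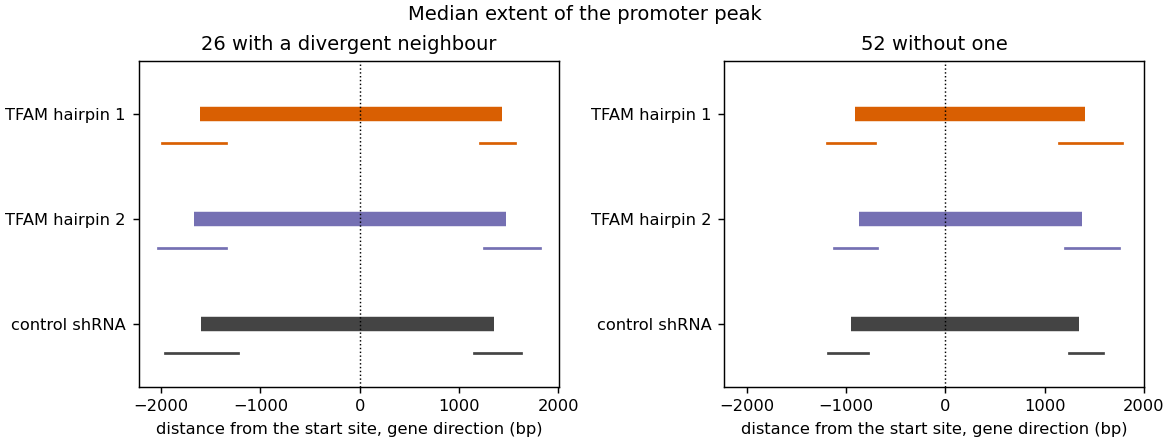
Median extent of the promoter peak upstream and downstream of the start site (bp, horizontal axis, direction of the gene) in each library, for members with a divergent neighbour and for the others; only genes with a promoter peak in that list enter, and thin lines span the interquartile range of each edge. The bars reach 1605, 1673 and 1600 bp upstream in paired members and 907, 866 and 952 bp in the others, in the order hairpin 1, hairpin 2, control.

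The promoter letters were searched on both strands from 250 bases before to 50 bases after each start site. CCGGAAG (ETS) was found in 32 of 78 members (41.0%, 30.01 to 52.7), against 23.1% of genes with a promoter peak in every list and 14.01% of all protein-coding genes. AAGATGGCG (YY1) was found in 13 of 78 (16.7%, 9.18 to 26.8), against 5.11% and 2.81%. The palindromic motif of NRF1, an activator of nuclear genes for mitochondria, was found in 9 of 78 (11.5%), against 14.1% and 8.35%. GGGCGG (SP1) was found in 47 of 78 (60.3%), against 77.0% and 60.9%. The ETS and YY1 letters can overlap by their shared AAG, and did so in 0 members; 4 members held both. A match of letters describes the sequence and does not show that a factor binds.

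**Figure D4:**
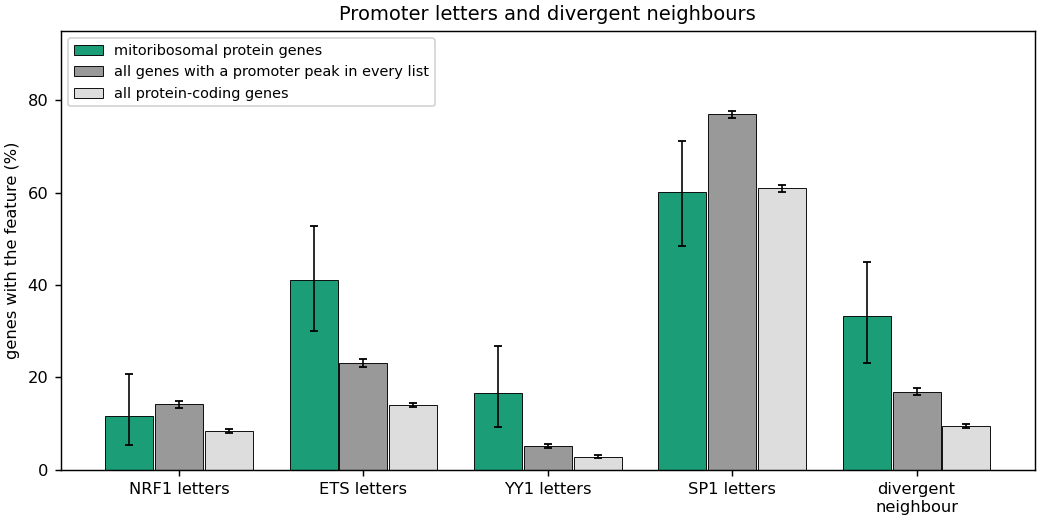
Share of genes (%, vertical axis) whose promoter holds each set of letters or has a divergent neighbour, for the 78 members, all genes with a promoter peak in every list and all protein-coding genes; lines are exact 95% intervals for counting error. Members stand above both backgrounds for ETS (41.0%), YY1 (16.7%) and divergent neighbours (33.3%), and not for NRF1 (11.5%) or SP1 (60.3%).

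The letters had preferred places, in members and over all marked genes. Those of YY1 stood on the strand of the gene within the 50 bases after the start site in 10 members (12.8%), namely MRPL22, MRPL38, MRPL42, MRPL46, MRPL50, MRPS10, MRPS18A, MRPS18B, MRPS24 and MRPS30. This was so in 3.34% of genes with a promoter peak in every list and 1.83% of all genes. Those of ETS lay within 75 bases before to 25 after the start site in 28 members (35.9%), compared with 15.5% and 9.12%. Of the promoters that held YY1 letters anywhere in the stretch searched, 10 of 13 in members had them in that place. Among genes with a promoter peak in every list 339 of 518 did. For ETS letters the counts were 28 of 32 and 1569 of 2342. Most promoters with these letters thus had them there, members or not. These windows were set after the positions were seen. Both subunits had such promoters: ETS letters in 17 of 49 large and 11 of 29 small subunit genes, and YY1 letters in 5 of 49 and 5 of 29. Over the whole stretch searched, on both strands, ETS letters were in 20 of 49 and 12 of 29, and YY1 letters in 8 of 49 and 5 of 29.

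**Figure D5:**
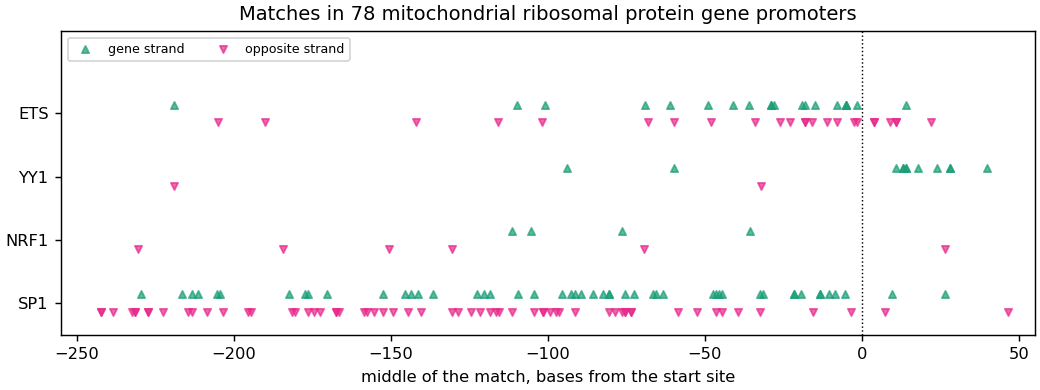
Middle of each match in the 78 promoters, in bases from the start site (horizontal axis), for ETS, YY1, NRF1 and SP1 letters; triangles up are on the strand of the gene and triangles down on the other. YY1 matches gather just after the start site on the strand of the gene in 10 members, and ETS matches lie around it in 28.

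Covered bp of members with and without the letters are given as a description. With ETS letters the median was 2727 bp in hairpin 1, 2663 bp in hairpin 2 and 2586 bp in the control, and without them 2587, 3038 and 2577 bp. With YY1 letters it was 2967, 3582 and 2954 bp in the 13 members, and without them 2640, 2659 and 2510 bp. The 13 thus had the higher median in each library. With SP1 letters it was 2648, 2352 and 2572 bp, and without them 2612, 3145 and 2640 bp. With NRF1 letters it was 2612, 2527 and 2433 bp in 9 members, and without them 2646, 2774 and 2587 bp.

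Genes that serve the same ribosome under other names were marked too. The 5 further mitoribosome proteins, among them DAP3 of the small subunit (5354 bp in hairpin 1, 6144 bp in hairpin 2 and 4266 bp in the control), all had a promoter peak in every list. CHCHD1, AURKAIP1, PTCD3 and GADD45GIP1 ranged between 2725 and 3699 bp in hairpin 1, between 2619 and 5827 bp in hairpin 2, and between 2870 and 3495 bp in the control. Of 26 assembly and rRNA modification factors 14 had more covered bp than the control in hairpin 1 and 18 in hairpin 2. Over all genes covered in both lists the shares with more were 57.2% and 66.5%. A promoter peak in every list was found at 25 of the 26. The exception was MRM1, a methyltransferase of mitochondrial ribosomal RNA, with 7502 bp in hairpin 1, 0 bp in hairpin 2 and 5841 bp in the control. It resembles MRPL14 in lacking a peak in hairpin 2 only. All 14 mitochondrial translation factors had a promoter peak in every list, with medians of 2501, 2330 and 2563 bp. More covered bp than in the control were seen at 6 in hairpin 1 and 6 in hairpin 2, where 57.2% and 66.5% of all genes had more. MTRF1L, a release factor, had the most of them in the control, with 3866 bp in hairpin 1, 3784 bp in hairpin 2 and 3942 bp in the control, and was not the highest in the hairpins.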

How the data were processed

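Peak lists of 3 H3K27ac libraries were used, grouped by sample title. Per the labels' protocols, only reads with a single genomic alignment (hg19) entered. The submitters' processing notes name Bowtie 0.12.7 and Picard but give neither a role. Peak names carry a MACS prefix, per the deposited lists. Caller version, threshold, use of the input and depth: not given in the sources used here. Each deposited score is the authors' value for 1 peak and served only for ranks within a list. The input library was not analysed here.

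Start sites came from canonical transcripts of GENCODE 44 on GRCh37. Overlaps with windows around them were computed in Python 3.11.15 (pandas 2.3.3, numpy 2.4.6), intervals in SciPy 1.17.1 and plots in matplotlib 3.10.9; the code was tested on simulated data. With 1 library per condition nothing was tested. Exact 95% intervals cover counting error only. Members named are those without a peak in every list, extremes of difference, length and score, and a role list. Members and lists were chosen with earlier results of these data known. The 79 annotated pseudogenes named after members were left out, being no protein-coding genes.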

Additional observations from a re-analysis of the deposited data

How the results depend on the processing

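Of 112 values recomputed under 14 settings, 98 stayed within 1.5 times (counts) or the 95% interval (medians and shares). Members marked in every list numbered 72 to 76 throughout. In the higher-scoring 50% of each list, 1 member was gained (MRPL22) and 1 lost (MRPL34) in both hairpins, and 2 were 1.5-fold higher and 1 lower in hairpin 2. MRPL22 and MRPL34 were marked in every full list, with scores on both sides of that cut, so the cut set their status. With peaks under 5 kb, chosen after seeing the data, 1 was lost (MRPL14), whose 6546 bp peak in hairpin 1 that limit removed. With 2 kb windows 1 was higher and 1 lower in hairpin 1, and 2 higher and 1 lower in hairpin 2. With 10 kb windows 7 were higher in hairpin 1. Promoter peaks alone gave 3 higher and 1 lower in hairpin 2. From 100 bases before the start, a window chosen after seeing the data, NRF1 letters were in 5.13% and SP1 letters in 43.6%. The large minus small subunit difference of median change in hairpin 2 was -34 bp. It turned to 12 bp with 10 kb windows, and it was -137 bp with peaks under 5 kb. With the widest promoter tried, MRPL35 was marked in hairpin 2 and the control. The cause of the other shifts was not tested. Depth, unknown here, limits what an absent peak shows. No paired analysis was possible because each condition had 1 library.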

Other observations

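Some members lie near each other without sharing a promoter. On chromosome 6 the start sites of MRPS10, MRPL2, MRPS18A and MRPL14 follow each other at distances of 841573, 628356 and 439661 bp. The first 3 were marked in every list, MRPL14 was not. MRPL2, a conserved large subunit protein, had 3582 bp in hairpin 1, 3397 bp in hairpin 2 and 2510 bp in the control, and MRPS10, a conserved small subunit protein, had 3319, 3582 and 2941 bp. On chromosome 17 MRPL58, MRPS7 and MRPL38 follow at 249195 and 643005 bp, and MRPS7, a conserved small subunit protein, had 2988, 3264 and 2872 bp. These runs were noticed after the values were seen.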
